A study of Rattus norvegicus with 6 samples.

Results

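The genes of the transforming growth factor-β (TGF-β) ligands and of the proteins that hold them in latent form were examined in TNF-α-treated rat chondrocytes with and without Nanofat lysate (NFL). They were taken by gene symbol as the 3 ligand genes Tgfb1, Tgfb2 and Tgfb3 and the 4 latent TGF-β binding protein (LTBP) genes Ltbp1, Ltbp2, Ltbp3 and Ltbp4, which made 7 of the 18420 genes deposited. All 7 were found and all 7 passed the filter on low counts, which kept 13250 genes. The cells were wild-type primary chondrocytes from the knee and hip cartilage of male Sprague-Dawley rats, used at the third passage. In the TNF-α group (3 libraries) they had received 10 ng/mL TNF-α, an inflammatory cytokine, for 6 h. In the TNF-α+NFL group (3 libraries) the same exposure was followed by NFL, the cell-free fluid of freeze-thawed Nanofat cells from rat fat, for another 24 h. Both groups had therefore received TNF-α. By these durations the TNF-α+NFL cells were also collected 24 h later, though the times of collection themselves were not stated. The effects of time and of NFL therefore cannot be told apart. Untreated cells were not analysed here, and whether TNF-α was removed before NFL was added was not stated in the sources used here. The libraries held 19344893 to 19725135 estimated counts each.

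The direction of every difference given here follows the deposited sample labels. The study's own names for these groups may run the other way, which could not be settled here. If the labels were exchanged, the log2 fold changes would keep their size and turn their sign, and the p-values would stay as they are. The study calls the libraries of a group independent biological replicates, but the labels do not say whether they came from separate animals, so p-values measure only the spread between these samples, which may be technical. TNF-α replicate 1 stood apart from the other libraries: on the leading principal component, which held 25.7% of the variance, it lay at one end and TNF-α replicate 3 at the other, with the 3 TNF-α+NFL libraries between them.

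TGF-β is made as a precursor whose propeptide stays bound to the mature growth factor after cleavage and keeps it from its receptors. In most cells this small latent complex is joined by a disulfide bond to an LTBP, which carries it out of the cell and fixes it to fibrillin and fibronectin fibers, from which integrins or proteases release it. In articular cartilage, TGF-β signaling through Smad2 and Smad3 is known to hold back the hypertrophic maturation of chondrocytes. The RNA levels described below measure neither the secreted protein nor its release from the latent complex.

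The stretches around the start sites of Tgfb3, Tgfb2 and Ltbp1 are shown because these were the only 3 of the 7 genes whose libraries did not overlap between the groups. Each window holds 250 bases before and 50 bases after the start in RefSeq's GRCr8 annotation, written 5′ to 3′ on the gene's strand, and all 7 genes matched an entry. Tgfb3 lies at chr6:111456897-111457196 (minus strand), Tgfb2 at chr13:100792636-100792935 (minus strand) and Ltbp1 at chr6:26177252-26177551 (minus strand). Capitals mark a cAMP response element, which only the Ltbp1 window of the 3 holds.
Tgfb3: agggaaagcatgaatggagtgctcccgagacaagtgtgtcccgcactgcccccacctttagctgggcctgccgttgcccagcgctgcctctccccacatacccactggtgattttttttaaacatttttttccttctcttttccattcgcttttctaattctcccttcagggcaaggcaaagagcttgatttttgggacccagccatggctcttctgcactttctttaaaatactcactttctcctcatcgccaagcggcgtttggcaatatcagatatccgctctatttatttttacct
Tgfb2: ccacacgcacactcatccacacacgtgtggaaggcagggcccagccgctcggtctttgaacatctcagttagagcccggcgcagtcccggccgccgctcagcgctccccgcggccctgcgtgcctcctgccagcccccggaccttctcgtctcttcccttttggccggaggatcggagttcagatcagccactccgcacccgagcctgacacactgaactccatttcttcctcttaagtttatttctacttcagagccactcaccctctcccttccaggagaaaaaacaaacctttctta
Ltbp1: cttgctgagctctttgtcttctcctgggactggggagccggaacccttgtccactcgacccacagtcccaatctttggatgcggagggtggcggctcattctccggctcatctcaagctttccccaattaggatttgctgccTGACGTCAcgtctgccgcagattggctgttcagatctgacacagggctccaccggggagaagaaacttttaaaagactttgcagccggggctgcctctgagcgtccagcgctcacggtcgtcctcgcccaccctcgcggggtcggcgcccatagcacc

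The motifs searched on both strands of every promoter window were the cAMP response element TGACGTCA, the AP-1 site TGAGTCA, the SMAD palindrome GTCTAGAC, the TATA box core TATAAA and an NF-kappaB-type site. The Ltbp1 window held TGACGTCA from base -108 to base -101, which reads the same on both strands and occurs in 1.83% of 33469 promoter windows. The NF-kappaB-type site, held by 4.18% of all windows, was found in Tgfb1 from base 39 to base 48 and in Ltbp2 on the opposite strand from base -31 to base -22. None of the 5 motifs was found in the Tgfb2, Tgfb3, Ltbp3 or Ltbp4 windows. AP-1, the TATA box core and the SMAD palindrome, absent from all 7 windows, occur in 4.63%, 14.2% and 0.197% of all windows. A match is a stretch of letters only, and no match says only that these letters are not in this window. The GC content was 47.7% for Tgfb3 and 59.0% for Tgfb2, against a median of 51.7% over all windows (quartiles 44.7% and 60.3%), and it reached 73.0% for Ltbp3 and 71.0% for Ltbp4. A ligand gene and an LTBP gene lie on the same stretch of a chromosome at 2 places in this annotation. The start sites of Tgfb3 and Ltbp2 lie 1.2 Mb apart on chromosome 6, and those of Tgfb1 and Ltbp4 lie 1.44 Mb apart on chromosome 1. Whether other genes lie between them was not examined.

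Of the 7 genes, Tgfb3 and Tgfb2 were higher in the TNF-α+NFL group at an adjusted p under 0.05 and 0 were lower (edgeR quasi-likelihood test over all genes, Benjamini-Hochberg adjustment). Over all 13250 genes tested, 0.408% were higher and 0.204% lower by the same rule. At an unadjusted p under 0.05 the counts for the 7 genes were again 2 higher and 0 lower, against 5.66% higher and 5.45% lower (11.1% in all) over all genes. DESeq2 and limma-voom also called 0 lower. The libraries of the groups did not overlap for 3 of the 7 genes, against 16.8% of all genes. The median log2 fold change was 0.041 over the 7 genes and -0.0035 over all genes.

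**Figure D1:**
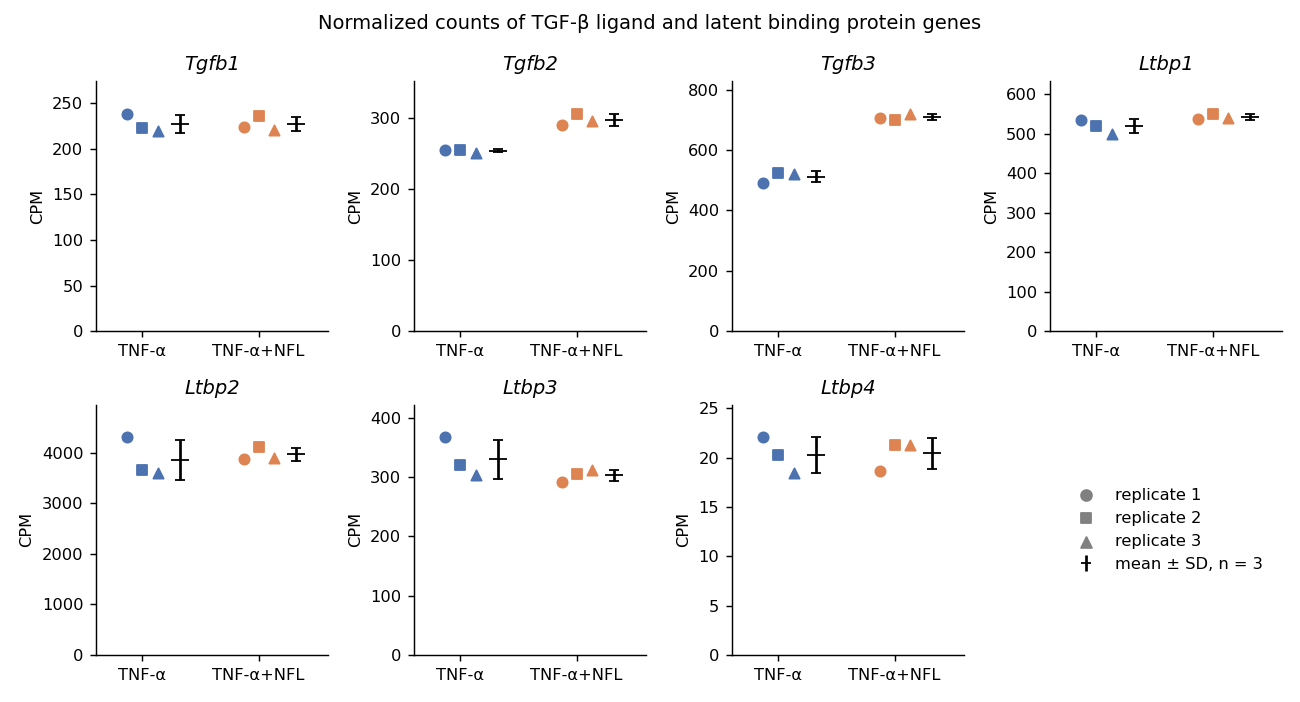
Normalized counts (CPM, vertical axes starting at 0) of the 3 ligand and 4 LTBP genes in each library, with markers for the replicates and black bars for the mean ± SD of 3 libraries. The TNF-α+NFL libraries lie wholly above the TNF-α libraries for Tgfb3 and Tgfb2, and by a small margin for Ltbp1, while TNF-α replicate 1 is the highest of its group for Ltbp2 and Ltbp3.

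Tgfb3, the isoform best known for its use in driving chondrogenic culture, gave the largest difference of the 7 genes. Its normalized counts, per 1e6 counts after scaling (CPM), were 492.4, 524.9 and 519.9 CPM in the TNF-α replicates 1 to 3 and 706.3, 699.9 and 720.6 CPM in the TNF-α+NFL replicates 1 to 3. Every TNF-α+NFL library thus lay above every TNF-α library, with a gap wider than either group's SD. The means were 512 ± 17.5 and 709 ± 10.6 CPM (SD, n = 3 each). The log2 fold change was 0.47 (SE 0.038, 95% interval 0.39 to 0.55, edgeR adjusted p = 0.00020). It stayed past the threshold when any 1 of the 6 libraries was left out, with log2 fold changes of 0.44 to 0.49. In an exact two-sided permutation test of this gene alone p was 0.10, the smallest that 3 against 3 libraries can give.

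Tgfb2, an isoform with a broad role in the development of the skeleton and heart, showed a smaller difference in the same direction. It stood at 255.3, 255.7 and 251.4 CPM in the TNF-α replicates 1 to 3 and at 290.8, 306.3 and 295.6 CPM in the TNF-α+NFL replicates 1 to 3. The groups did not overlap, and the TNF-α libraries were nearly equal to each other. The means were 254 ± 2.38 and 298 ± 7.93 CPM, the log2 fold change was 0.23 (SE 0.037, 95% interval 0.15 to 0.31) and the edgeR adjusted p was 0.017 (exact permutation p = 0.10). The difference kept its size when 1 library was left out (log2 fold changes of 0.21 to 0.25). It was past the threshold in only 1 of these 6 fits, the one without TNF-α replicate 1 (adjusted p = 0.00017), and the adjusted p reached 0.175 without TNF-α+NFL replicate 2. The call also ended with a replicate block (edgeR adjusted p = 0.061) and with limma on log2 FPKM (adjusted p = 0.098 and 0.097 with pseudocounts of 1 and 0.1), at nearly the same log2 fold change.

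Tgfb1, the isoform most often studied in fibrosis and immune regulation, did not show a detectable difference. Its normalized counts were 238.2, 222.8 and 219.0 CPM in the TNF-α libraries and 224.0, 236.1 and 220.5 CPM in the TNF-α+NFL libraries. The ranges overlapped almost wholly, with TNF-α replicate 1 the highest library of all. The means were 227 ± 10.2 and 227 ± 8.21 CPM. The log2 fold change was 0.0014 (SE 0.044, adjusted p = 0.997), and its 95% interval of -0.094 to 0.096 corresponds to folds between 0.937 and 1.07. The interval lies wholly below those of Tgfb2 and Tgfb3.

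**Figure D2:**
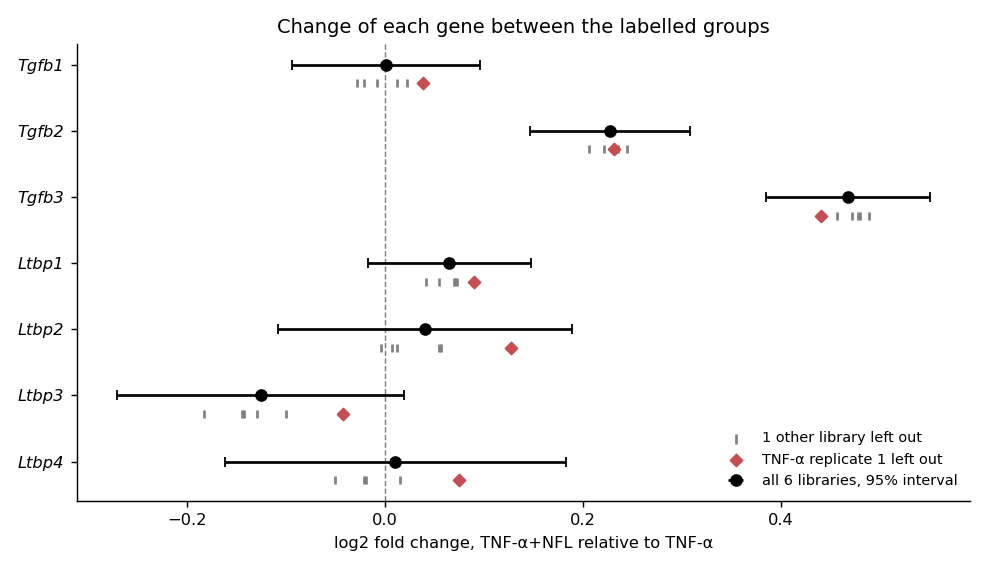
Log2 fold change (TNF-α+NFL relative to TNF-α, horizontal axis) of each gene with its 95% interval over all 6 libraries (black), and the value when 1 library was left out (red diamonds without TNF-α replicate 1, grey marks without any other). Tgfb3 and Tgfb2 lie above 0 throughout, while leaving out TNF-α replicate 1 gives the highest value for all 4 LTBP genes and Tgfb1.

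Ltbp1, which encodes the binding protein first isolated as part of the large latent complex, lay slightly higher in the TNF-α+NFL libraries without passing the test. It stood at 535.6, 519.2 and 500.2 CPM in the TNF-α libraries and 537.5, 550.4 and 539.1 CPM in the TNF-α+NFL libraries. The groups did not overlap, but the highest TNF-α library and the lowest TNF-α+NFL library were nearly equal. The log2 fold change was 0.065 (SE 0.038, 95% interval -0.017 to 0.15, edgeR adjusted p = 0.57).

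Ltbp2 encodes a matrix protein that binds fibrillin microfibrils and, unlike the other LTBPs, does not join the latent TGF-β complex. It gave the highest counts of the 7 genes, 4304, 3657 and 3604 CPM in the TNF-α libraries and 3883, 4121 and 3891 CPM in the TNF-α+NFL libraries. TNF-α replicate 1 was the highest and the other two TNF-α libraries were the lowest of the 6, so that the groups overlapped through 1 library. The log2 fold change was 0.041 (SE 0.066, 95% interval -0.11 to 0.19, adjusted p = 0.89). Without TNF-α replicate 1 it was 0.13 and past the threshold (adjusted p = 0.0105), and without TNF-α replicate 3 it was -0.0035.

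Ltbp3, a binding protein needed for normal growth of the skeleton and teeth, had the only log2 fold change below 0. Its normalized counts were 367.1, 321.2 and 302.9 CPM in the TNF-α libraries and 292.6, 304.9 and 311.2 CPM in the TNF-α+NFL libraries. TNF-α replicate 1 lay far above the other 5 libraries, which overlapped. The log2 fold change was -0.13 (SE 0.065, 95% interval -0.27 to 0.019, adjusted p = 0.54), and it was -0.042 without TNF-α replicate 1. Its counts per gene were fractional in all 6 libraries, so that the authors' counting had assigned some reads to this gene only in part. The level of Ltbp3 thus depends on that division, whereas the counts of the other 6 genes were whole.

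Ltbp4, whose product supports elastic fiber assembly and prefers latent TGF-β1, was the least abundant of the 7. It had 365 to 421 estimated counts in a library, or 22.04, 20.29 and 18.45 CPM in the TNF-α group and 18.64, 21.30 and 21.28 CPM in the TNF-α+NFL group. The groups overlapped fully. The log2 fold change was 0.011 (SE 0.080, 95% interval -0.16 to 0.18, adjusted p = 0.98). Counting error alone gives a coefficient of variation of 5.02% at this depth, against an observed 8.84% in the TNF-α group and 7.51% in the TNF-α+NFL group.

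The TNF-α libraries varied more among themselves than the TNF-α+NFL libraries for 6 of the 7 genes, Tgfb2 being the exception. For Ltbp2 the coefficient of variation was 10.1% in the TNF-α group and 3.41% in the TNF-α+NFL group, and for Ltbp3 it was 10.0% and 3.12%. For Ltbp1 it was 3.42% in the TNF-α group. Whether transcript length had a part in the spread of these genes was not tested. Across all genes, the libraries differed in how their counts moved with transcript length. The correlation of a library's deviation with log2 length, which is across genes that are not independent replicates, was 0.11, -0.12 and -0.19 in TNF-α replicates 1 to 3 and 0.050, 0.14 and 0.035 in TNF-α+NFL replicates 1 to 3. With that trend removed, in a fit chosen after seeing the data, the log2 fold changes were 0.46 for Tgfb3, 0.20 for Tgfb2, 0.032 for Tgfb1, 0.024 for Ltbp1, 0.0012 for Ltbp2, -0.15 for Ltbp3 and -0.022 for Ltbp4. That of Ltbp3 thus lay farther from 0 than before (edgeR adjusted p = 0.17), and those of Ltbp1 and Ltbp2 lay closer.

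Per unit of transcript length, on the TPM scale, Ltbp2 was the most abundant of the 7 genes, with means of 1131 ± 139 TPM in the TNF-α group and 1189 ± 47.1 TPM in the TNF-α+NFL group. It ranked 131 of the 18420 genes by mean TPM. Tgfb3 followed with 356 ± 5.89 and 504 ± 5.14 TPM, and then Tgfb1 with 306 ± 20.5 and 313 ± 13.2 TPM. These 3 did not overlap with each other in either group. Lower in the order, Ltbp1 had means of 160 and 172 TPM, Ltbp3 had 140.0 and 132 TPM, and Tgfb2 had 119 and 142 TPM. In the TNF-α group Ltbp1 and Ltbp3 overlapped, and Tgfb2 lay below both. In the TNF-α+NFL group Tgfb2, at 138.7 to 147.7 TPM, lay above Ltbp3, at 127.3 to 134.7 TPM. Ltbp4 was far below all others at 7.84 and 8.05 TPM.

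The makeup of the ligand RNA differed with these levels. The summed TPM of the 3 ligand genes was 801, 778 and 763 in the TNF-α libraries and 948, 977 and 953 in the TNF-α+NFL libraries, with no overlap. Tgfb3 made up 45.6 ± 1.67% of this sum in the TNF-α group and 52.5 ± 1.13% in the TNF-α+NFL group, Tgfb1 39.2 ± 1.67% and 32.6 ± 0.899%, and Tgfb2 15.3% and 14.8%. The ratio of Tgfb3 to Tgfb1 TPM was 1.06, 1.21 and 1.23 in the TNF-α libraries and 1.62, 1.53 and 1.68 in the TNF-α+NFL libraries. These ratios follow from the levels already given and are a description, with no test.

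Of the summed LTBP TPM, Ltbp2 made up 78.5% in the TNF-α group and 79.3% in the TNF-α+NFL group, Ltbp1 11.2% and 11.4%, and Ltbp4 0.545% and 0.536%, and for these 3 genes the libraries of the groups overlapped. The share of Ltbp3 was 9.74%, 9.92% and 9.53% in the TNF-α libraries and 8.68%, 8.51% and 9.14% in the TNF-α+NFL libraries, lower in every TNF-α+NFL library. These shares are a description, with no test. The 3 LTBPs known to bind latent TGF-β (Ltbp1, Ltbp3 and Ltbp4) summed to 308 ± 26.3 TPM in the TNF-α group and 311 ± 6.27 TPM in the TNF-α+NFL group. Set against the summed ligand TPM, this was 0.420, 0.389 and 0.374 in the TNF-α libraries and 0.321, 0.324 and 0.328 in the TNF-α+NFL libraries. The LTBP RNA per ligand RNA was thus lower in every TNF-α+NFL library, with the ligand sum as the part of the ratio that differed.

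**Figure D3:**
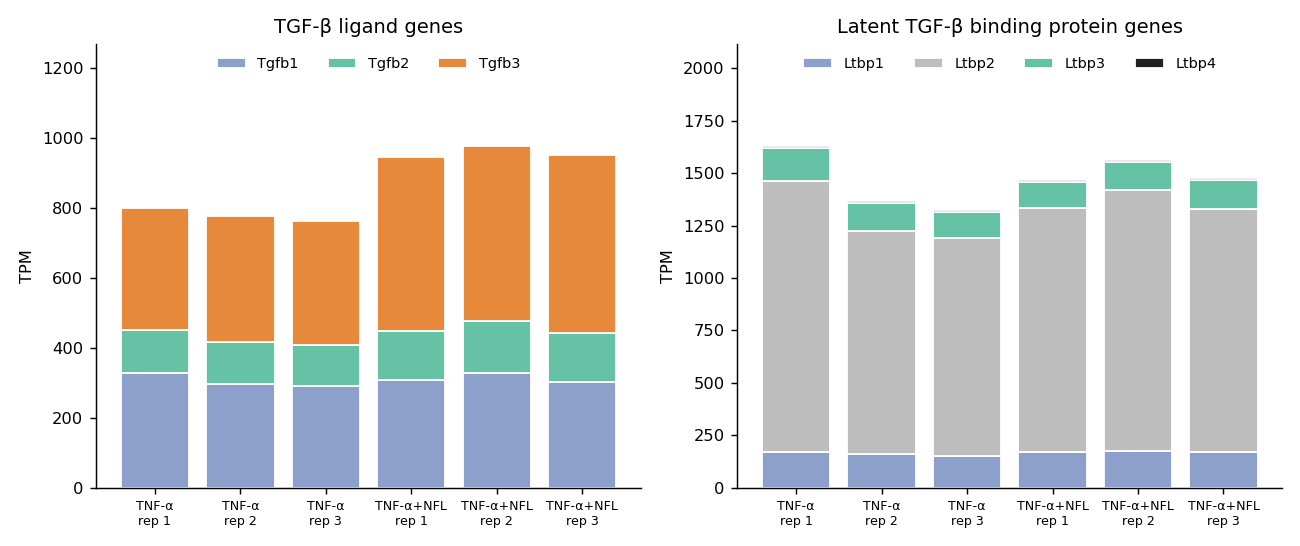
Stacked TPM (vertical axes starting at 0) of the 3 ligand genes (left) and the 4 LTBP genes (right) in each of the 6 libraries. The ligand bars are taller in the 3 TNF-α+NFL libraries, mainly through Tgfb3, while Ltbp2 makes up most of every LTBP bar and the tallest LTBP bar belongs to TNF-α replicate 1.

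Tgfb2 and Tgfb3 followed each other across the 6 libraries (Pearson r = 0.963 of log2 CPM), whereas Tgfb1 went more closely with Ltbp2 (r = 0.903) than with Tgfb2 (r = 0.151) or Tgfb3 (r = -0.101). These correlations take in the difference between the groups and the shared libraries, and are a description. The 5 genes whose log2 CPM lay closest to that of Tgfb3 were Gpatch8 (r = 0.994), Itga10 (r = 0.994), Fhl1 (r = 0.992), Impact (r = 0.992) and Akap12 (r = 0.991). Of these, Fhl1, a LIM-domain protein of muscle (log2 fold change 0.28), and Akap12, a kinase scaffold (0.44), passed the edgeR test with adjusted p = 0.0074 and 0.00091. Among the 5 closest to Tgfb2 were Mul1 (r = 0.996), Sorbs2 (r = 0.994), Pdlim5 (r = 0.994) and Lmcd1 (r = 0.994). Sorbs2 and Pdlim5, which encode proteins of actin structures, and Lmcd1, a LIM-domain cofactor, passed the edgeR test with log2 fold changes of 0.27, 0.22 and 0.36 (adjusted p = 0.022, 0.018 and 0.0056). All these genes were picked for following a called gene over the same 6 libraries. Their passing is thus partly fixed by that choice and is no added evidence, while 0.408% of all genes were called higher.

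Other genes of the pathway were taken from 7 lists, which cover storage, release, sensing, feedback, response genes and other ligands of the superfamily. Of 91 genes tested, 7 were higher and 3 lower (7.69% and 3.30%), against 0.408% and 0.204% of all genes, and the median log2 fold change was 0.028. Of these, 6 of those higher and 1 of those lower were response genes. With 1 library left out the counts moved, to 20 higher and 8 lower without TNF-α replicate 1 and to 1 higher and 0 lower without TNF-α+NFL replicate 1. Over all genes, the first of these fits called 460 higher and 470 lower of 13409, and the second 5 higher and 0 lower of 13400. None of the 12 tested partners and matrix anchors of the latent complex, the 8 receptors and SMADs, the 6 extracellular binders or the 10 feedback inhibitors was called by edgeR, DESeq2 or limma-voom, and 1, 1, 1 and 3 of them, in that order, had an unadjusted edgeR p under 0.05, against 11.1% of all genes. The fibrillin gene Fbn1, whose fibers anchor LTBPs, stood at 1109 ± 147 and 1065 ± 62.5 CPM (log2 fold change -0.058, adjusted p = 0.91). Tgfbr1, a signaling receptor, stood at 52.8 ± 0.963 and 56.8 ± 1.78 CPM (0.10, adjusted p = 0.43), and Tgfbr2, another, at 366 ± 15.0 and 363 ± 3.87 CPM (-0.012, adjusted p = 0.95). Smad7, the inhibitor that TGF-β itself induces, stood at 88.9 ± 2.35 and 91.9 ± 3.70 CPM (0.048, adjusted p = 0.77). Of the 10 feedback inhibitors, 8 had a log2 fold change above 0 and 2 below. Among them were Skil at 0.16 (edgeR adjusted p = 0.10) and Tgif1 at -0.12 (edgeR adjusted p = 0.36).

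Among 19 tested activators of latent TGF-β, 1 was higher and 2 were lower by edgeR, against 0.408% and 0.204% of all genes. DESeq2 called 5 and limma-voom 3 in either direction, and 8 had an unadjusted edgeR p under 0.05 in either direction, against 11.1% of all genes. The log2 fold change was above 0 for 10 of the 19 genes and below 0 for 9. Itgb1, the β1 integrin chain, stood at 2503 ± 81.0 CPM in the TNF-α group and 2884 ± 40.2 CPM with NFL (log2 fold change 0.20, edgeR adjusted p = 0.028). Plau, the urokinase that turns plasminogen into plasmin, was lower at 78.9 ± 3.19 against 99.4 ± 2.17 CPM (-0.33, adjusted p = 0.0056), and so was Mmp13, the main collagenase of cartilage, at 272 ± 11.5 against 336 ± 21.8 CPM (-0.31, adjusted p = 0.017). Plat, another plasminogen activator, went the other way without passing, at 374 ± 8.02 CPM with NFL against 325 ± 16.3 CPM (0.20, edgeR adjusted p = 0.060). Furin, the protease that cleaves the TGF-β precursors, was listed at 136.5 TPM in both groups, and Thbs1, which encodes the activator thrombospondin-1, had means of 3283 and 3816 TPM (adjusted p = 0.22). Itgb1 and Mmp13 each passed in 1 of the 6 fits with 1 library left out, and Plau in 4.

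Among 27 genes known to respond to TGF-β, 6 were higher and 1 was lower by edgeR, against 0.408% and 0.204% of all genes, and the median log2 fold change was 0.044. DESeq2 called 9 and limma-voom 7 in either direction, and 17 had an unadjusted edgeR p under 0.05 in either direction, against 11.1% of all genes. The log2 fold change was above 0 for 15 of the 27 genes and below 0 for 12. Those higher included Tnc (tenascin-C, log2 fold change 0.40, adjusted p = 0.00091), Myl9 (myosin light chain, 0.33, adjusted p = 0.0056), Cald1 (caldesmon, 0.32, adjusted p = 0.0026), Acta2 (smooth muscle actin, 0.28, adjusted p = 0.010) and Itga11 (a collagen-binding integrin chain, 0.27, adjusted p = 0.037), all by edgeR. Id1, which BMP signaling also induces, was lower (-0.28, adjusted p = 0.023). Tnc passed in all 6 fits with 1 library left out, Cald1 in 5, Myl9 in 4, Acta2 in 2, and Itga11 and Id1 in 1. Genes such as Col1a1 (0.065, adjusted p = 0.80) and Fn1 (-0.12, adjusted p = 0.80) did not pass. Of the others that edgeR did not call, Tgfbi (-0.39, adjusted p = 0.21) and Cdkn2b (-0.24, adjusted p = 0.066) lay below 0. Postn lay above it (0.14, adjusted p = 0.22). Of the 7 genes called, Acta2, Myl9 and Cald1 encode parts of the contractile apparatus, and Itga11 and Tnc encode adhesion and matrix proteins. The summed levels of the fibroblast markers and of the endothelial and pericyte markers, given at the end, also did not overlap between the groups, and their part in these counts was not tested. The lists were drawn up with earlier results of these data known, so these counts are not independent evidence.

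**Figure D4:**
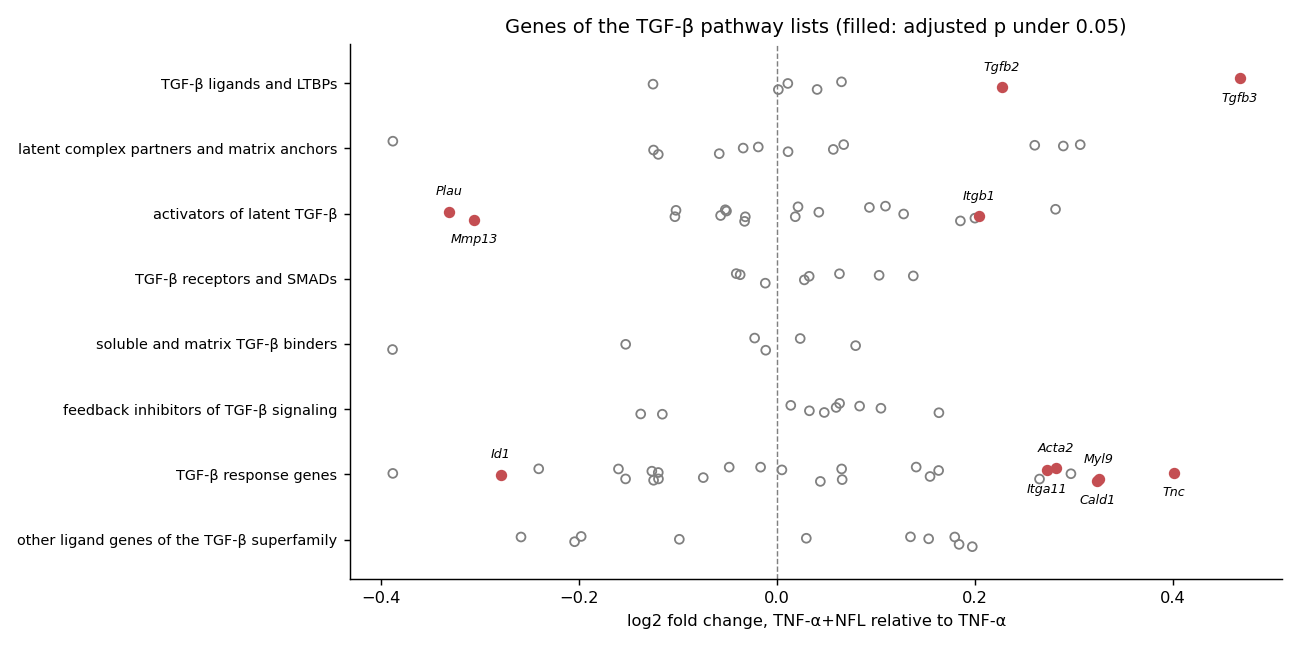
Log2 fold change (TNF-α+NFL relative to TNF-α, horizontal axis) of tested genes among the ligand and LTBP genes and the 7 pathway lists, 1 row per list with a small vertical offset for legibility. Filled red points passed an adjusted p of 0.05 and are named, and Tgfb3 lies farthest to the right of those drawn.

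The cell type markers limit how these cells stand for cartilage. Of 18 chondrocyte markers, 12 had a mean above 1 TPM, led by Prg4 (lubricin, 1140 and 1060 TPM) and Col11a1 (420 and 500.1 TPM). The defining Col2a1, Acan and Sox9 were low, at 7.72 and 9.23, 5.11 and 5.55, and 4.42 and 4.66 TPM. All 9 markers of dedifferentiated chondrocytes and fibroblasts were above 1 TPM, led by S100a4 (3651 and 3604 TPM) and Thy1 (2453 and 2677 TPM). Their summed level was 8309 to 8612 TPM in the TNF-α libraries and 8751 to 8844 TPM in the TNF-α+NFL libraries, and 0 of them passed by edgeR, DESeq2 or limma-voom (2 of the 9 had an unadjusted edgeR p under 0.05, against 11.1% of all genes). In bulk samples, fewer cells of a type and less RNA per cell cannot be told apart.

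Markers of adipocytes, of macrophages and blood, and of endothelial cells and pericytes had low summed levels. Stromal cells of fat share markers such as Thy1 with fibroblasts, so these lists cannot tell them apart from the cultured cells. The 8 adipocyte markers, led by Fabp4 and Lpl, summed to 37.2 to 40.0 TPM in the TNF-α libraries and 39.3 to 45.1 TPM in the TNF-α+NFL libraries, with Adipoq at 0.047 and 0.14 TPM and Lep at 3 counts or fewer. The 5 macrophage and blood markers found, led by Cd68 and Csf1r, summed to 36.7 to 45.0 and 34.0 to 43.3 TPM. The 7 endothelial and pericyte markers found summed to 37.3 to 41.4 and 41.9 to 44.3 TPM, led by Mcam and Cspg4, with Kdr at 0 in all libraries. Mcam, which marks pericytes and other adherent cells, was the only marker of the 5 lists that edgeR called (log2 fold change 0.37, adjusted p = 0.0056), while DESeq2 and limma-voom also called 1 chondrocyte marker, Col11a1. Cspg4, the only other tested marker of the endothelial and pericyte list, went the opposite way, at 74.5 ± 8.14 CPM in the TNF-α group against 63.1 ± 2.30 CPM with NFL, without overlap (log2 fold change -0.24, edgeR adjusted p = 0.22). The part of these shifts in the Tgfb3 and Tgfb2 differences was not tested.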

How the data were processed

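Poly(A) RNA of 6 samples was read as single-end 50-base reads. Per the labels, the submitters' processing notes name HISAT2 2.0.4, Bowtie2 2.2.5, RSEM 1.2.12 and the rat build Rnor_6.0; the annotation and the strand setting were not given in the sources used here. Per gene, the authors gave RSEM's estimated counts, which are not whole for 27.3% to 28.0% of genes. The deposited table also holds FPKM and TPM values made by the authors, which scale the counts by transcript length and depth.

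The members and lists were chosen with earlier results of these data known. After rounding to whole numbers, the estimated counts entered edgeR 4.0.16 (R 4.3.3: filterByExpr, TMM, robust quasi-likelihood test, two-sided, Benjamini-Hochberg over 13250 genes), with DESeq2 1.42.0, limma-voom and limma 3.58.1 on log2(FPKM + pseudocount) as alternatives. The scripts were tested on simulated data. CPM values used TMM-scaled depths, and levels between genes were compared in TPM. Depth was 19344893 to 19725135 counts per sample, and the common biological coefficient of variation was 6.39%. Within a group no sample pair agreed within sampling noise. The genes named were the 7 members, list genes past an adjusted p of 0.05, the 2 highest markers of each cell type and the 5 genes most correlated with each called member. Fbn1, Tgfbr1, Smad7, Furin, Thbs1, Col1a1, Fn1, Col2a1, Acan, Sox9, Adipoq, Lep, Kdr, Inhba and Bmp4 were named after their values were seen. So were Tgfbr2, Skil, Tgif1, Plat, Tgfbi, Cdkn2b, Postn and Gdf15. Promoter windows came from a RefSeq GRCr8 table, a later build than that of the counts. Some genes that these rules name are not reported here and are left out of the plot, but stay in the counts.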

Additional observations from a re-analysis of the deposited data

How the results depend on the processing

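Tgfb3 kept its direction and stayed past the threshold in all 6 fits without 1 library and all 9 other alternatives (log2 fold change 0.44 to 0.49). Tgfb2 kept its direction throughout but lost the call with limma on FPKM (0.22 with a pseudocount of 1, 0.23 with 0.1) and ranged from 0.21 to 0.25 without 1 library. Without 1 library, values crossed 0 for Tgfb1 (-0.028 to 0.039), Ltbp2 (-0.0035 to 0.13) and Ltbp4 (-0.050 to 0.076), and Ltbp4 was -0.022 with the length trend removed, a setting chosen after seeing the data. Of the 7 genes, 1 was higher with limma on FPKM at either pseudocount and at an adjusted p under 0.01, and 1 to 3 without 1 library, the highest without TNF-α replicate 1, when Ltbp2 also passed. In the pathway lists, 11 genes were higher with no filter, 12 by DESeq2, 1 and 3 with limma on FPKM, 14 with the length trend removed and 1 to 20 without 1 library. Those lower numbered 0 and 1 with limma on FPKM, 6 with the length trend removed and 0 to 8 without 1 library. Over all genes, the counts higher and lower were 84 and 48 with no filter, 79 and 46 by DESeq2, 3 and 3 or 7 and 6 with limma on FPKM, 154 and 84 with the length trend removed, 460 and 470 without TNF-α replicate 1 and 5 and 0 without TNF-α+NFL replicate 1. The cause of these shifts was not tested.

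Samples with the same replicate number showed little shared deviation (correlations 0.053, -0.018 and 0.11). The labels do not say whether the numbers pair the samples, and so few libraries cannot exclude a weak pairing. With a replicate block, Tgfb2 had a log2 fold change of 0.23 (edgeR adjusted p = 0.061), 1 of the 7 genes was higher, 1 pathway gene was lower, and 25 genes were higher and 9 lower over all genes.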

Other observations

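Of 10 other ligand genes of the TGF-β superfamily tested, edgeR and limma-voom called 0 and DESeq2 called 1, Inhba, while 6 had an unadjusted edgeR p under 0.05, against 11.1% of all genes. Their median log2 fold change was 0.082. Bmp4, a bone morphogenetic protein, was the most abundant of them, with means of 238 and 273 TPM (204 ± 10.2 and 227 ± 2.88 CPM, log2 fold change 0.15, adjusted p = 0.16). Inhba, whose product forms activin A, stood at 231 ± 11.3 and 264 ± 0.811 CPM (0.20, adjusted p = 0.059). Both were higher in every TNF-α+NFL library, while Gdf15 was lower in every one (-0.26, edgeR adjusted p = 0.43). Of the 10 genes, 6 had a log2 fold change above 0 and 4 below. The groups did not overlap for 5 of them, against 16.8% of all genes.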
